A study of Homo sapiens with 4 samples.

Results

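The 10 genes described here are immediate early genes, chosen by name: FOS, FOSB, FOSL1, FOSL2, JUN, JUNB, JUND, EGR1, ATF3 and IER2. All 10 had a row among the 25693 human genes of the deposited count table. They were measured by droplet single-cell RNA sequencing in NGP, an established neuroblastoma cell line, in a study that set single-cell platforms side by side on a perturbed line. All samples were first synchronised by serum removal and were then kept for 24 h with Nutlin-3, a small molecule that keeps MDM2 from binding p53, or with ethanol, its solvent. Each treatment had 2 libraries, which received the ERCC spike-in RNAs at a 1000-fold or a 10000-fold dilution. No serum-fed sample was analysed here, so the effect of serum removal itself has no comparison.

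Immediate early genes are transcribed within minutes of a growth factor or stress signal, from factors that are already in the cell, and their mRNAs are short-lived. Serum is their classical inducer: it acts through the ERK kinases, the ELK factors and SRF, which binds the CArG box. FOS and JUN proteins pair through leucine zippers to form AP-1, EGR1 is a zinc finger factor, ATF3 is a stress-induced repressor of the same zipper class, and IER2 is a small nuclear protein. ATF3 is also described as a direct target of p53.

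The columns of the table carry a treatment word and no library, so each treatment is 1 pool of 250 columns, with no replicate and no test. The ethanol pool held 1342134 human counts and the Nutlin-3 pool 1301232. A single column held 303 to 13472 human counts with ethanol and 249 to 13470 with Nutlin-3, and 113 columns of each pool had over 4000 counts. These large columns held 88.7% of the ethanol and 89.2% of the Nutlin-3 counts. Of the 250 column names of a pool, 219 also occurred in the other, so columns may not be separate cells and are called columns throughout. The line's adrenergic markers were present: all 12 of the list passed the filter on low counts, with 3474 counts in ethanol and 3466 in Nutlin-3. All intervals below cover counting error only, which takes counts as independent molecules, and say nothing of variation between cultures.

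FOS and FOSL1 had higher counts with Nutlin-3 than with ethanol by more than counting error. The counting intervals of FOSB, ATF3, EGR1, FOSL2, IER2 and the JUN genes all included no difference. The sum of FOS was 18 with ethanol and 56 with Nutlin-3. FOSL1 went from 1 count to 14, ATF3 from 19 to 33 and EGR1 from 54 to 72. Together the 10 genes had 667 counts in ethanol, or 497 CPM, which are counts scaled to a common total of human counts (95% Poisson interval 460 to 536), and 796 in Nutlin-3, or 612 CPM (570 to 656). Their median log2 fold change was 0.38, or 0.30 over the 9 that passed the filter on low counts, where the median over the 14830 genes that passed it was -0.0017. In bulk sums of this kind, fewer cells that express a gene and less RNA per cell cannot be told apart.

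**Figure D1:**
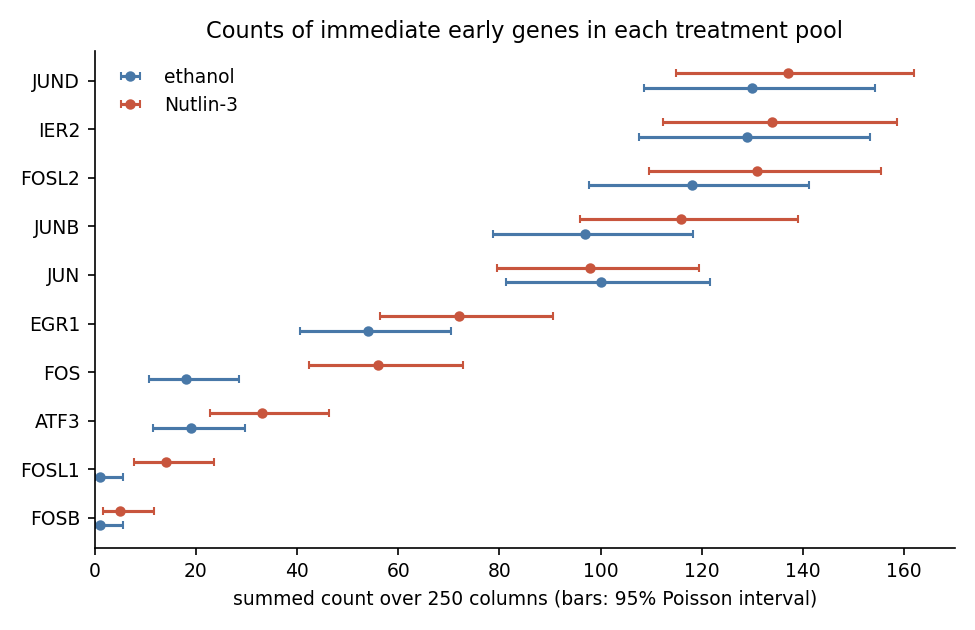
Summed counts of each immediate early gene over the 250 columns of the ethanol pool (blue) and the Nutlin-3 pool (red), with 95% Poisson intervals as bars. The intervals lie apart for FOS (18 against 56) and FOSL1 (1 against 14) and overlap for the other genes.

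A gene was taken as past the fold used here when it was at least 1.5-fold higher or lower. Of the 10 genes, 9 passed the filter and 3 of these were past it, all upward: FOS, FOSL1 and ATF3. Over all kept genes 7.81% were at least 1.5-fold higher and 5.85% at least 1.5-fold lower. The share depends on abundance. Among the 4819 kept genes with under 100 counts over both pools, where FOS, FOSL1 and ATF3 lie, 21.4% were at least 1.5-fold higher and 15.8% lower. Among the 10011 more abundant genes 1.25% were higher and 1.06% lower. In large columns alone, where 7.56% of kept genes were higher and 5.73% lower, FOS and ATF3 were past the fold and FOSL1, with 14 counts, was below the 15 that a call needed there. FOSL1 reached the filter only through its Nutlin-3 counts, and FOSB, with 6 counts in all, did not reach it.

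FOS (ENSG00000170345, chromosome 14, 75278774 to 75282230, plus strand, 4 exons), the founding AP-1 partner, is known as a rapid sensor of growth signals. Its level was 13.4 CPM in ethanol (7.95 to 21.2) and 43.0 CPM in Nutlin-3 (32.5 to 55.9), and the intervals did not overlap. This is a 3.15-fold difference, 1.66 on the log2 scale, with a 95% counting interval of 0.89 to 2.54. Of the 4819 less abundant kept genes, 139 had a larger fold increase than FOS. Large columns alone gave 18 and 52 counts of FOS, 1.54 on the log2 scale (0.77 to 2.43), and small columns 0 and 4.

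FOSL1 (ENSG00000175592, chromosome 11, 65892049 to 65900573, minus strand), which encodes the FOS-related protein FRA1, had the largest fold of the family on the fewest counts of the kept members. With 1 count against 14 the ratio of the scaled sums, with no counts added, was 14.4, with a counting interval from 2.20 to 611. With the 0.5 counts that all log2 values here have added to each sum it was 3.32 on the log2 scale. Of these counts, 1 and 13 came from large columns. FOSB (ENSG00000125740, chromosome 19, 45467995 to 45475179, plus strand), a further FOS paralogue, had 1 count in ethanol and 5 in Nutlin-3, a ratio of 5.16 with no counts added and an interval from 0.577 to 244 that includes 1. The FOSB locus lies within ERCC1, a DNA repair gene on the opposite strand and no spike-in, which had 158 and 155 counts. Whether counting used strand is not given in the sources used here, so the FOSB counts are uncertain.

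FOSL2 (ENSG00000075426, chromosome 2, 28392448 to 28417312, plus strand), the gene of FRA2, was by contrast among the most abundant members. Its sums were 118 with ethanol and 131 with Nutlin-3, 0.20 on the log2 scale (-0.17 to 0.57). Of the 4 FOS genes, 3 had few counts in ethanol and 1, FOSL2, had over 100 counts in both pools. Of those 3, FOS and FOSL1 were higher in Nutlin-3 by more than counting error, while the interval of FOSB included no difference. FOSL2 had 1 count in most large columns of both pools, and its share of large columns, read as a Poisson mean, gave 0.67 on the log2 scale.

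The 3 JUN genes are intronless and each has 1 exon. JUN (ENSG00000177606, chromosome 1, 58780788 to 58784327, minus strand), the main AP-1 transactivator, summed to 100 with ethanol and 98 with Nutlin-3. Its log2 fold change of 0.02 (-0.40 to 0.43) was the smallest of all 10 genes, and in large columns alone it was -0.02. JUNB (ENSG00000171223, chromosome 19, 12791496 to 12793315, plus strand), which can oppose JUN, had 97 and 116 counts and a value of 0.30 (-0.10 to 0.71). It lies within HOOK2 on the opposite strand, which had 54 and 57 counts. JUND (ENSG00000130522, chromosome 19, 18279760 to 18281622, minus strand), the member known to be expressed in resting cells, had 130 and 137 counts and a value of 0.12 (-0.24 to 0.48). The intervals of all 3 JUN genes include 0, which does not show that their levels were the same.

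EGR1 (ENSG00000120738, chromosome 5, 138465490 to 138469315, plus strand, 2 exons) lay between these groups. Its 54 counts in ethanol and 72 in Nutlin-3 gave 0.46 on the log2 scale (-0.07 to 1.00), below the fold used here and with an interval that includes 0. ATF3 (ENSG00000162772, chromosome 1, 212565334 to 212620777, plus strand) had 19 and 33 counts, a 1.77-fold difference that is 0.83 on the log2 scale (-0.01 to 1.74). The interval just includes 0, all counts of ATF3 came from large columns, and 637 of the 4819 less abundant kept genes had a larger increase. IER2 (ENSG00000160888, chromosome 19, 13150415 to 13154908, plus strand) had 129 and 134 counts, 0.10 on the log2 scale (-0.26 to 0.46).

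**Figure D2:**
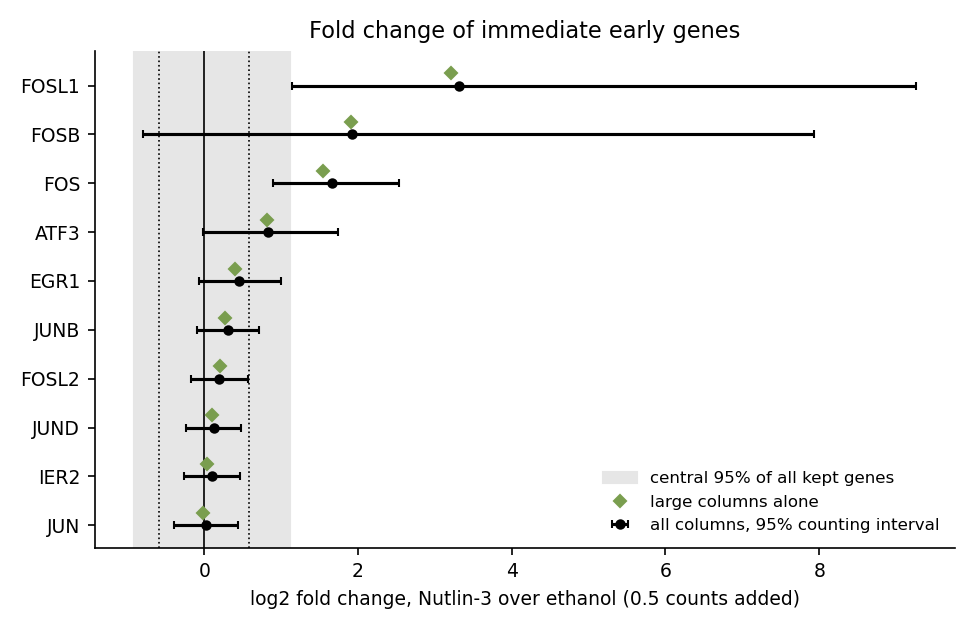
Nutlin-3 to ethanol ratio of each gene on the log2 scale, from all columns (black, with 95% counting interval) and from large columns alone (green). Dotted lines mark 1.5-fold and the grey band holds the central 95% of kept genes, from -0.92 to 1.12. FOS at 1.66 and FOSL1 at 3.32 lie outside the band, FOSB at 1.92 rests on 6 counts, and the lower 6 genes lie within 0.46 of 0. The band takes in kept genes of every abundance and is too narrow for genes with few counts. Among the 4819 kept genes with under 100 counts, 2.88% had a larger fold increase than FOS and 0.477% a larger one than FOSL1.

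The windows before the transcription starts of 5 of these genes are shown because serum and stress signals are known to act on genes of this class through elements near the start. Among the printed windows only that of EGR1 holds a CArG box. RefSeq windows (GRCh38.p14) were found for 9 of the 10 genes, all but FOSL1. The 250 bases before the start are printed 5′ to 3′ along the gene, with matches in capitals. The letters searched on both strands were TGACGT (the core of the cyclic AMP response element, CRE), TGACGTCA (the full CRE, which contains that core), TGACTCA (the AP-1 site), TGACATCA (an AP-1-like site), TATAAA (the TATA box), the CArG box and the p53 decamer. The windows are chr14:75278578-75278827 for FOS and chr19:45467746-45467995 for FOSB, both plus strand. They are chr5:138465229-138465478 for EGR1 and chr1:212565157-212565406 for the upstream start of ATF3, both plus strand, and chr1:58784048-58784297 for JUN, minus strand.
FOS: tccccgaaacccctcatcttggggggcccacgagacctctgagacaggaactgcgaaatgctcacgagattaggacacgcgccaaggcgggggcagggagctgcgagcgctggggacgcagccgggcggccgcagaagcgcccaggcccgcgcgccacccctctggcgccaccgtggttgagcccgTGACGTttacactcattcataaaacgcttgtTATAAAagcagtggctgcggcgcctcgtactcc
FOSB: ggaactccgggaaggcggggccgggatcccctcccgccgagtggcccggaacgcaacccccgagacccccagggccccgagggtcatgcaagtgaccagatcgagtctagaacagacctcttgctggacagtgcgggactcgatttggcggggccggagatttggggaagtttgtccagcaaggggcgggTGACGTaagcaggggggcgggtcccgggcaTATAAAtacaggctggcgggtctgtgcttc
EGR1: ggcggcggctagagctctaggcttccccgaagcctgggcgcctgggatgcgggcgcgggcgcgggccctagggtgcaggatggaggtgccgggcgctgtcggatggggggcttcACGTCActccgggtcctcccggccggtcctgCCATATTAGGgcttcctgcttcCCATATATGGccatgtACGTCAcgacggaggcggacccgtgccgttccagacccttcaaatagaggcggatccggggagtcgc
ATF3: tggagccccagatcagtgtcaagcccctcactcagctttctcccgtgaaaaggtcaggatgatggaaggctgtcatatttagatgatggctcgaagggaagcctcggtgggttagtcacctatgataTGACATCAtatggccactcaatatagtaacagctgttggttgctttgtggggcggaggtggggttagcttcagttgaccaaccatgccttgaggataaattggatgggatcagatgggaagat
JUN: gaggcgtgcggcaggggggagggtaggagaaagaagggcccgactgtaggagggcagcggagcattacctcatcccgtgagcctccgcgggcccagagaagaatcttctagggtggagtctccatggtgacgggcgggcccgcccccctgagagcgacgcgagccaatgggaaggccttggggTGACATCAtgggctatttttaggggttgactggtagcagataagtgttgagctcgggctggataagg

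FOS and FOSB share an arrangement: TGACGT starts 64 bases before the start in FOS and 60 in FOSB, with TATAAA at 33 and 30. FOSL2 has the same core 66 bases before its start and no TATAAA match in the window, JUNB has TATAAA at 31 bases and no core, and EGR1 has the core's reverse letters at 136 and 67 bases. Of 35116 RefSeq windows of this length, 7.10% hold TGACGT and 10.7% hold TATAAA. EGR1 has a pair of CArG boxes, CCATATTAGG at 105 and CCATATATGG at 83 bases before the start, and 1.16% of all windows hold such a box. JUN and the upstream ATF3 start each hold TGACATCA, at 67 and 123 bases, as do 2.37% of windows. JUND holds the full TGACGTCA at 200 bases, as do 1.65% of windows. No p53 decamer, present in 5.57% of windows, matched in any window of the 9 genes, and neither did TGACTCA, present in 4.2%. ATF3 had 2 windows, the printed one and chr1:212614768-212615017, and the bases between them were not searched. The lack of a match there does not show that ATF3 has no p53 site. A match is a description of letters, and these windows leave out elements that lie further away.

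The counts within columns set a limit on the abundant members. In the 113 large columns of ethanol, JUND had exactly 1 count in 101, 2 counts in 9 and none in 3. In Nutlin-3 it had exactly 1 count in 101, 2 in 10, 3 in 1 and none in 1. IER2 had exactly 1 count in 103 ethanol and 96 Nutlin-3 columns, and FOSL2 in 102 and 103. Across kept genes with a mean of 0.8 to 1.2 counts per large column, the median share of columns with exactly 1 count was 86.7% in ethanol and 85.8% in Nutlin-3, where Poisson counts with a mean of 1 would give 36.8%. Members that were already in nearly every large column thus stood where counts hardly varied, and the part this played in their small fold changes was not tested.

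The less abundant members were far from that level. FOS was in 18 of 113 large ethanol columns, a share of 15.9% (Clopper-Pearson 9.72 to 24.0), and in 52 of the 113 of Nutlin-3, a share of 46.0% (36.6 to 55.6), never with more than 1 count. ATF3 was in 16.8% (10.4 to 25.01) and 29.2% (21.0 to 38.5). FOSL1 was in 0.885% (0.022 to 4.83) and 11.5% (6.27 to 18.9). EGR1 was in 46.0% (36.6 to 55.6) and 56.6% (47.0 to 65.9). The intervals of the shares did not overlap for FOS and FOSL1, at median totals of 10738 counts in ethanol and 10617 in Nutlin-3. Columns are not replicates of a treatment, and these intervals take them as independent. FOS, FOSL1 and ATF3 never had more than 1 count in a column. Their shares therefore repeat their sums over large columns and add no further evidence. JUN went the other way, from 85.0% (77.0 to 91.0) to 80.5% (72.0 to 87.4), with overlapping intervals.

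**Figure D3:**
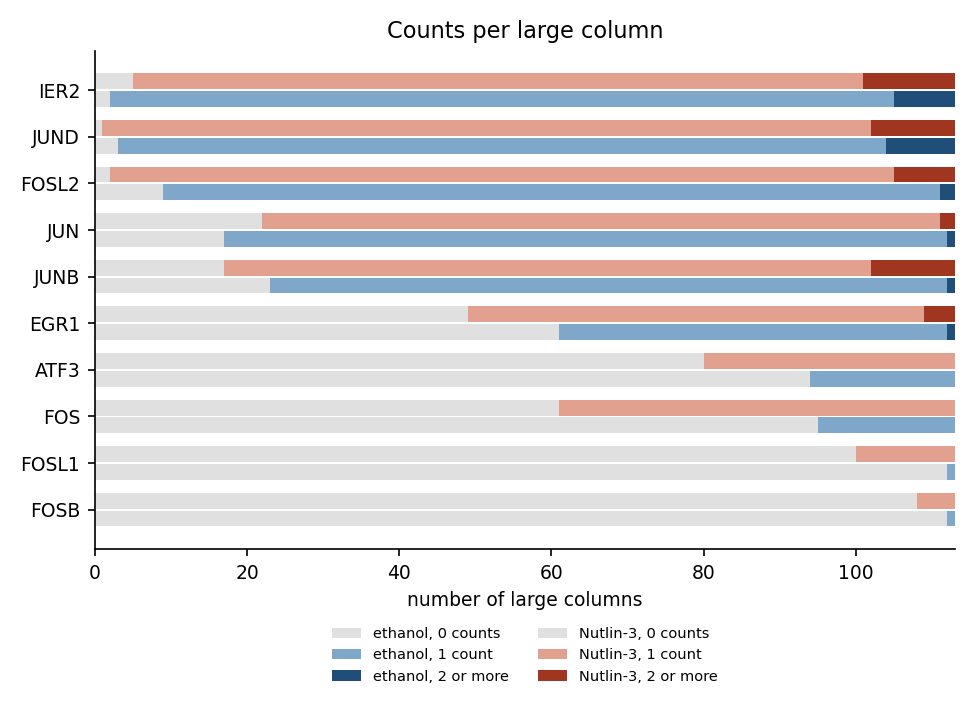
Number of large columns, of 113 per treatment, with 0 counts (grey), 1 count (pale) or 2 or more counts (dark) of each gene, for ethanol (blue) and Nutlin-3 (red). IER2, JUND and FOSL2 have 1 count in most columns of both pools, while FOS has a count in 18 ethanol and 52 Nutlin-3 columns.

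A large column held a median of 5 of the 10 genes in ethanol (range 1 to 8) and 6 in Nutlin-3 (range 2 to 9). At least 7 were present in 18 ethanol and 46 Nutlin-3 columns, or 15.9% and 40.7%. FOS went from 18 to 52 large columns, ATF3 from 19 to 33, FOSL1 from 1 to 13 and EGR1 from 52 to 64. JUN, from 96 to 91, and IER2, from 111 to 108, were in fewer. No other set of genes was counted in this way. In small columns 70.1% of ethanol and 65.0% of Nutlin-3 columns had none of them. When columns were thinned at random to 700 human counts, leaving out 56 ethanol and 63 Nutlin-3 columns that were shallower, FOS was seen in 2 of 194 ethanol columns, or 1.03% (0.125 to 3.67), and in 4 of 187 Nutlin-3 columns, or 2.14% (0.586 to 5.39). That is 1 random draw, whose intervals overlap. The share expected over all draws was 0.612% in ethanol and 2.92% in Nutlin-3. Unthinned, FOS was in 7.2% and 22.4% of each pool's 250 columns, whose median totals were 2287 and 2010.5. At least 1 of the 10 genes was seen in 27.3% (21.2 to 34.2) and 32.6% (26.0 to 39.8) of thinned columns. No cell type that lacks these genes was in the libraries, so the part of free RNA was not measured.

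**Figure D4:**
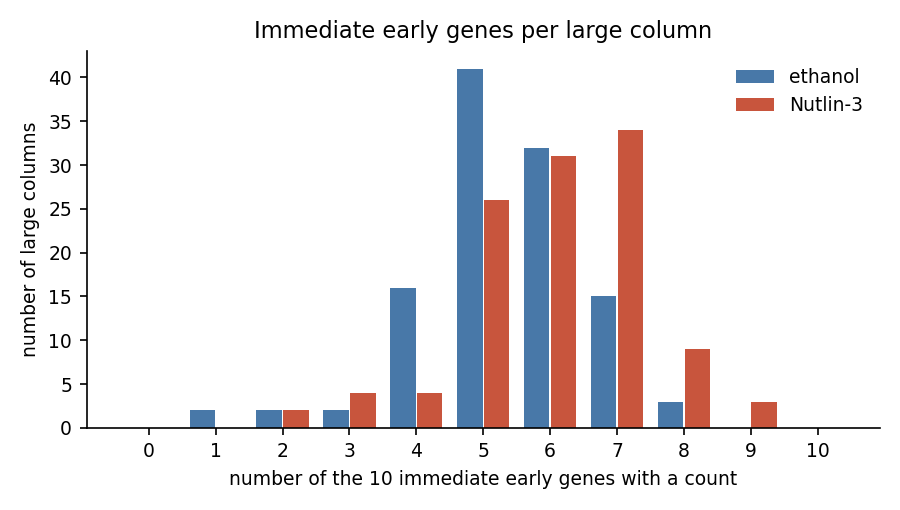
Number of large columns, of 113 per treatment, by how many of the 10 immediate early genes had a count, in ethanol (blue) and Nutlin-3 (red). The ethanol columns peak at 5 genes (41 columns) and the Nutlin-3 columns at 7 (34 columns).

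Presence of FOS in a column was set beside presence of the others. In ethanol EGR1 was in 11 of the 18 large columns with FOS (61.1%) and in 41 of the 95 without (43.2%). In Nutlin-3 it was in 31 of 52 (59.6%) and in 33 of 61 (54.1%). JUN was in 17 of 18 and 79 of 95 ethanol columns, and in 45 of 52 and 46 of 61 Nutlin-3 columns. ATF3 showed no such excess, with 3 of 18 against 16 of 95 and 15 of 52 against 18 of 61. Columns with FOS were deeper, with a median of 11093 against 10715 counts in ethanol and 10820 against 10185 in Nutlin-3, and the part of depth in these shares was not tested.

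Spearman correlations over the 113 large columns were weak and are given as a description. Among the 45 pairs of members the median was 0.05 in both pools on depth-scaled counts, with a highest value of 0.64 in ethanol and 0.58 in Nutlin-3, against 0.32 and 0.29 on unscaled counts. Scaled counts of the members correlated with the inverse of the column total by up to 0.80 and 0.75. The genes with the highest mean correlation with the 10 were ENTR1, BBX and RPS19BP1 in ethanol, at 0.30 each, and SF3B2, KLC1 and SMIM8 in Nutlin-3, at 0.28, 0.28 and 0.27. Each of the 6 also correlated with the inverse total, by 0.67 to 0.80. On unscaled counts the highest mean correlation was 0.20 in ethanol (SND1) and 0.18 in Nutlin-3 (BTBD1), and none of the Nutlin-3 genes recurred.

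Levels of the genes were also divided by length, here the exon bases of each gene in GENCODE 29. The kit reads the 3′ ends of transcripts, where counts need not grow with length, so the division itself can set the order: JUND and FOSL2, with 130 and 118 ethanol counts, have 1863 and 7157 exon bases. In CPM per kilobase the ethanol order was JUND at 52.0, JUNB 39.7, IER2 31.3, JUN 21.0, EGR1 12.8, FOSL2 12.3, FOS 4.14, ATF3 3.50, FOSL1 0.395 and FOSB 0.134. By counting intervals, the gaps from IER2 to JUN, from JUN to EGR1 and from FOSL2 to FOS exceeded counting error, and the other neighbours overlapped. These intervals take counts as independent, while JUND, IER2 and FOSL2 had exactly 1 count in most large columns. The order of these genes may therefore reflect that limit and their length. In Nutlin-3 the order of the 10 was the same, but FOS, at 13.3, overlapped FOSL2 at 14.1 and lay clear of ATF3 at 6.28. FOSL1 was at 5.70 and FOSB at 0.692, with JUND at 56.5, JUNB at 49.0, IER2 at 33.5, JUN at 21.3 and EGR1 at 17.6.

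A list of 41 other immediate early genes held members that were higher and members that were lower. Of these, 37 had a row and 31 were kept, with 19 higher and 12 lower in Nutlin-3 and a median log2 fold change of 0.05. Exactly 3 were at least 1.5-fold higher, or 9.68%, and 3 at least 1.5-fold lower, against 7.81% and 5.85% of all kept genes. Of the higher genes, PLK3 and PLK2 had 100 counts or more over both pools, where 1.25% of kept genes were higher. NR4A3 and the 3 lower genes, NR4A2, SGK1 and CCN1, had under 100, where 21.4% were higher and 15.8% lower. PLK3 had 44 and 101 counts, with ethanol and Nutlin-3 in that order, 1.24 on the log2 scale (0.72 to 1.79). PLK2 had 63 and 121, a value of 0.98 (0.54 to 1.45). These polo-like kinases are known as stress-induced p53 targets. The NR4A orphan receptors differed in sign: NR4A3 had 27 and 46 counts (0.80, 0.10 to 1.56), NR4A2 had 56 and 22 (-1.28, -2.08 to -0.57), and NR4A1 had 68 and 70. SGK1, a serum-induced kinase, had 19 and 12 (-0.60, -1.79 to 0.50). CCN1, named after its values were seen as the other lower gene, had 12 and 7. BTG2, a growth inhibitor named after its values were seen, had 94 and 129 counts (0.50, 0.11 to 0.90). The other EGR genes were hardly present, with no count of EGR2, EGR3 or EGR4 in ethanol and 1, 1 and 2 in Nutlin-3. The most abundant genes of the list were ID2 (266 and 276 counts), MCL1 (175 and 175) and ID3 (154 and 176).

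**Figure D5:**
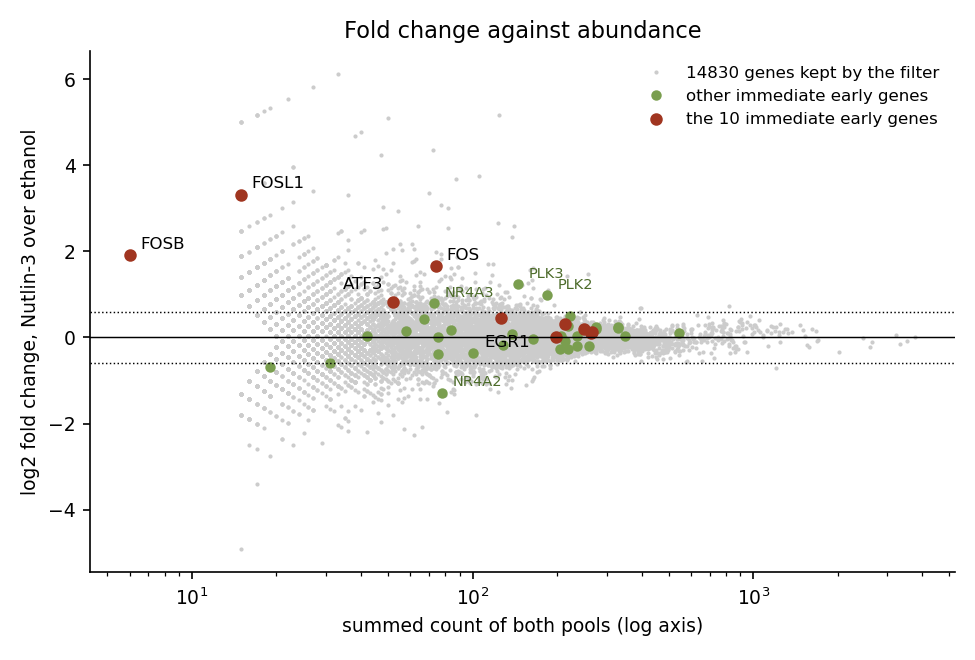
Nutlin-3 to ethanol ratio on the log2 scale against the summed count of both pools on a log axis, for 14830 kept genes (grey), the 10 immediate early genes (red) and the kept genes of the other immediate early list (green). Dotted lines mark 1.5-fold. The unlabelled red points are JUN, JUNB, JUND, FOSL2 and IER2, which lie near 0 at 198 to 267 counts, where the grey cloud is narrow.

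The kinases and SRF factors that feed these genes differed little. Of 28 genes 27 were kept, with a median of -0.0029, 1 at least 1.5-fold higher and 0 lower. The 1 was RPS6KA1, an ERK-activated kinase, with 27 and 44 counts (0.74, 0.03 to 1.5). Over all kept genes 7.81% were at least 1.5-fold higher and 5.85% lower. RPS6KA1, and DUSP10 below, lie among the kept genes with under 100 counts, of which 21.4% were higher and 15.8% lower. SRF itself had 118 and 130 counts. MAPK8 (157 and 161) and MAP2K2 (151 and 146) were among the most abundant. Of the 15 ERK feedback inhibitors and targets, all kept, with a median of 0.07, DUSP10 alone was past the fold, with 16 and 28 counts (0.83, -0.08 to 1.84). DUSP6, an ERK phosphatase read as a sign of ERK output, had 74 and 95 counts, and DUSP1 had 119 and 118. Both are named though neither was past the fold or among the most abundant. Of the 15, 10 were higher and 5 lower. Those lower were SPRY1 (73 and 49 counts), ETV4 (85 and 65), ETV1 (118 and 93), SPRED1 (116 and 104) and DUSP5 (19 and 13). DUSP4 (158 and 166), SPRED2 (127 and 138) and SPRY2 (125 and 128) were the most abundant.

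Other zipper proteins can pair with FOS, JUN or ATF3. Of 25, 22 had a row and 21 were kept, with a median of -0.08. None (0) was at least 1.5-fold higher and 2 were lower, both among genes under 100 counts, of which 15.8% were lower. JDP2, a repressor that pairs with JUN, had 27 and 17 counts (-0.61, -1.59 to 0.31). CREB5, named after its values were seen, had 13 and 7 (-0.80, -2.41 to 0.58), so both intervals include 0. ATF4 (207 and 190), CEBPG (147 and 132) and ATF6 (140 and 133) were the most abundant.

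Heat shock genes respond with immediate early genes when cells are handled or warmed. Of 16 genes 15 were kept, with 14 below and 1 above 0 on the log2 scale and a median of -0.18. Of the 15, 3 were at least 1.5-fold lower and 0 higher, where 5.85% and 7.81% of all kept genes were, and 15.8% and 21.4% of those under 100 counts, among them BAG3 and HSPA1A. HSP90AA1, a chaperone, had 755 and 446 counts, -0.71 on the log2 scale (-0.89 to -0.54). It lies among the kept genes with 100 counts or more, of which 1.06% were lower and 1.25% higher. BAG3, a co-chaperone, had 36 and 14 (-1.29, -2.32 to -0.39). HSPA1A had 37 and 17 (-1.05, -2.0 to -0.21) and its near-identical copy HSPA1B 123 and 105, so reads may be split between them. HSPA8 had 305 and 239 counts and HSP90AB1 412 and 363. The part of handling in these values and in those of FOS was not tested.

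Growth arrest genes are known from serum-starved cells. Of 15, 13 were kept, with a median of -0.03, 2 at least 1.5-fold higher and 3 lower. Over all kept genes 7.81% were higher and 5.85% lower, and among those under 100 counts 21.4% and 15.8%. Among kept genes with 100 counts or more, where GAS6 lies, 1.25% were higher and 1.06% lower. GAS6 had 63 and 98 counts (0.68, 0.21 to 1.16) and PIK3IP1 37 and 58 (0.69, 0.07 to 1.33). GAS1 had 37 and 17 (-1.05, -2.0 to -0.21) and GAS2 21 and 9 (-1.13, -2.49 to 0.01). GAS2L1, named after its values were seen, had 17 and 9. GAS5 (236 and 279), TXNIP (135 and 148) and CDKN1B (140 and 133), the gene of the quiescence inhibitor p27, were the most abundant.

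Markers of other cell types, mesenchymal cells foremost, were summed beside these genes, and their part in the differences was not tested. Of 14 such markers 10 had a row and 6 were kept, and they summed to 483 CPM in ethanol and 507 in Nutlin-3. VIM (276 and 277 counts), TWIST1 (210 and 230) and SNAI2 (73 and 54) made up most of this. FN1 had 37 and 19 counts (-0.90, -1.80 to -0.08) and COL1A1 29 and 47 (0.73, 0.04 to 1.46). The defining mesenchymal factor PRRX1 had 2 counts in each pool, S100B 0 and 3, and CD34 0 and 1. Of the adrenergic markers none (0 of 12) was past 1.5-fold, where 7.81% of all kept genes were higher by that much and 5.85% lower. CHGA had 411 and 559 counts, HAND2 342 and 309, and MYCN 1140 and 877.

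These differences are relative to human counts. With the ERCC sums as library sizes, every log2 fold change shifted by -0.47, and the median of all kept genes to -0.47. On that scale FOS was at 1.19, FOSL1 at 2.85, FOSB at 1.45 and ATF3 at 0.36. EGR1 was at -0.01, JUNB at -0.17, FOSL2 at -0.27, JUND at -0.35, IER2 at -0.37 and JUN at -0.45. Those 6 signs turned by construction, since any gene between 0 and 0.47 turns under the same shift. FOS and FOSL1 kept a fold above 1.5 on both scales and ATF3 did not. Each pool mixes both spike-in dilutions in an unknown proportion, so this scale cannot be told apart from a difference in that mixture. The 31 columns of each pool whose names were not shared held 19805 and 23060 counts, with 7 and 16 of these from the 10 genes. FOS, FOSB, FOSL1 and ATF3 had 0 counts there in either pool, so their differences rest on columns with shared names.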

How the data were processed

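RNA was measured in 4 libraries of NGP cells, 2 with Nutlin-3 and 2 with ethanol, made with the SureCell WTA 3′ kit on the ddSeq device, per the labels' protocols. The authors deposited whole-number counts per gene and column, for 25693 human genes, 62 ERCC species and 500 columns. For the aligner, barcode and tag handling, strand, build and cell filter, the labels give nothing: each was not stated in the sources at hand. In column names the word treated was read as Nutlin-3 and untreated as ethanol. With 1 pool per treatment no edgeR test, p-value or replicate check could be had.

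Human counts were summed per pool, without ERCC rows, and scaled by TMM (edgeR 4.0.16, R 4.3.3). The edgeR filter with a minimum of 10 kept 14830 genes. Log2 fold changes had 0.5 counts added to each sum. Intervals are exact Poisson for sums and exact binomial (Clopper-Pearson, scipy 1.17.1) for shares and for fold changes, at 95%. The fold computation was tested on simulated data. Symbols came from a table that matched 25422 identifiers, positions from GENCODE 29 on GRCh38, and windows from RefSeq; the authors' build may differ. All 10 genes were named, with genes of the other lists that were past 1.5-fold with at least 30 counts over both pools, and the 3 most abundant of each, of which 1 is not reported here. The genes, the lists and the limit of 4000 counts for large columns were chosen with earlier results of these data known. KLF2, ZFP36L1, CCN2, GADD45B, BATF, BATF2, MAF, COL1A2, SOX10, PECAM1 and PTPRC had no matched row. Alternatives were DESeq2 1.42.0 size factors, plain totals, ERCC counts, subsets of columns, no filter, 1 count added and thinning.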

Additional observations from a re-analysis of the deposited data

How the results depend on the processing

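No paired analysis was possible because the columns name no library or dilution, so no library could be left out either. Of 104 values of single genes under alternatives, 87 stayed within the first value's counting interval, 17 left it, and 0 of those past 1.5-fold changed sign. The alternatives reuse the same counts, and dropping the filter cannot change the value of a gene. Intervals as wide as that of FOSB, -0.79 to 7.93, are hard to leave. The tally therefore says nothing of variation between cultures. The split of the background at 100 counts, the share of large columns read as a Poisson mean, unscaled correlations and the need for 15 counts were chosen after the data were seen.

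FOS, FOSL1 and ATF3 (3 genes) were at least 1.5-fold higher under DESeq2 size factors, plain totals, no filter, 1 count added and thinning of the larger pool. The number was 2 with ERCC scaling (without ATF3), and 2 in large columns alone and without shallow columns, where FOSL1 had under 15 counts. In small columns alone 2 other genes, JUNB and IER2, made up the number. There 15.2% of kept genes were at least 1.5-fold higher and 14.8% lower. JUNB had 6 and 9 counts there (-0.94 to 2.49) and IER2 9 and 14 (-0.54 to 2.16), so both intervals include 0. In columns with unshared names the number was 0, since 31 columns per pool hold too few counts. The median of the 10 genes moved to -0.089 with ERCC scaling. In columns with unshared names it was -0.22, which is the scaling offset alone, since 4 genes had 0 counts in both pools and FOSL2 had 2 in each. There JUN was at 2.59 (0 and 3 counts), JUNB at 2.10 (0 and 2), IER2 at 1.65 (1 and 5) and EGR1 at 1.36 (0 and 1). JUND went the other way, at -0.58 (4 and 3 counts). With so few counts these values rest largely on the 0.5 counts added. The summed level of the 10 genes was 275 and 444 CPM in small columns alone, for ethanol and Nutlin-3. In columns with unshared names it was 354 and 694 CPM.

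ERCC scaling moved list medians to -0.42 for other immediate early genes, -0.55 for zipper partners, -0.47 for kinases and SRF factors, -0.40 for ERK feedback, -0.65 for heat shock and -0.30 for adrenergic markers. Small columns alone gave 0.32 for other immediate early genes, 0.30 for ERK feedback, 0.35 for growth arrest genes and 0.42 for adrenergic markers. The cause was not tested.

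Unthinned, the share with FOS was 7.2% for ethanol and 22.4% for Nutlin-3, and with any of the 10 genes 61.6% and 64.4%. In 1 random draw at 350 counts any of them was in 11.6% and 21.6%, where 13.4% and 17.5% were expected over all draws. In small columns at 700 counts FOS was in 0% of 81 ethanol columns, which allows up to 3.70% by the rule of 3 counts and up to 4.45% by Clopper-Pearson. The share with any of the 10 there was 22.2% for ethanol and 21.6% for Nutlin-3, the other order from all columns, where 22.5% and 26.5% were expected over all draws.

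Read as a Poisson mean of the share of large columns, the log2 ratio was 1.83 for FOS, 3.78 for FOSL1 and 0.91 for ATF3. It was 0.67 for FOSL2, -0.21 for JUN and -0.37 for IER2, so JUN and IER2 turned in direction. FOSL2, JUN and IER2 had exactly 1 count in most large columns, more often than Poisson counts would give. For these genes the reading does not hold, and the turned direction is not a result about their levels.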
